A study of Oryctolagus cuniculus with 20 samples.

Results

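At 1 week after internal derangement of the jaw joint, the condylar cartilage of rabbits was compared with that of untreated rabbits, with 4 arrays per group and 8 of the 20 arrays of the study. The arrays were chosen by the treatment and time in their labels. All rabbits were male and 6 months old. In the 1-week group internal derangement had been made in the left temporomandibular joint. The control rabbits had no treatment and no time label. Because no sham-operated rabbits were labelled, the procedure and the derangement cannot be told apart. The design text counts the rabbits of each group separately, so each array was taken as 1 animal. The study also sampled joints at 2, 4 and 8 weeks, and total RNA from the cartilage was read in 1 dye, 1 RNA per array.

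The mandibular condyle is capped by a cartilage that bears load and also grows. A fibrous surface lies over chondrocytes, which make type II collagen and aggrecan under the transcription factor SOX9. Deeper chondrocytes enlarge, make type X collagen and secrete Indian hedgehog (IHH), and parathyroid hormone-related protein, read by PTH1R, holds that maturation back. The lateral pterygoid, a chewing muscle, attaches to the neck of the condyle just below this tissue.

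Levels below are log2 units relative to the 75th percentile of signal of the same array, so a negative level is a probe dimmer than that percentile. The main chondrocyte markers were present in both groups. The level of COL2A1, which encodes type II collagen, was 8.41, 8.46, 9.27 and 9.46 in control and 9.04, 10.02, 9.75 and 11.43 at 1 week. ACAN, CNMD and COL2A1 were well above background on every one of the 8 arrays, and SOX9 on the 4 arrays of the 1-week group alone. Control and 2-week arrays were scanned on one day and 1-, 4- and 8-week arrays on another, and each group had its own slide, so the group, its slide and its scan day cannot be told apart here. The 2-week level, scanned with control, and the 4- and 8-week levels, scanned with 1 week, are therefore given beside the main genes. They are descriptions, not further tests. Replicate 4 of the 1-week group stood apart, with a 75th percentile of signal of 174.1 against 242.9 to 485.6 on the other 7 arrays and 49.05% of spots well above background against 54.52% to 66.4%.

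Of 25467 probes well above background on at least 3 of 4 arrays of either group, limma called 3658 (14.4%) at a Benjamini-Hochberg adjusted p under 0.05, 2510 higher (9.86%) and 1148 lower (4.51%) at 1 week. Only 3269 of all 43603 probes could be named. Among the 725 named genes with such a probe, 152 were called (21%), 90 higher (12.4%) and 62 lower (8.55%). The count of each gene list below is to be read beside these shares. The 4 arrays of one group lay wholly beyond the other 4 in 161 named genes (22.2%), and 119 of these were among the 152. Centring each array on its median gave 1759 higher and 1884 lower probes, and 72 higher and 100 lower named genes. That centring moved the median difference of all probes from 0.0205 to -0.12, so small shifts below have no settled sign. With the spread estimated from the 8 arrays alone, 1372 probes (5.39%) and 60 named genes (8.28%) were called. With normexp background correction, which offsets dim signals, 57 probes and 6 named genes were called, which were GYG1, GJA5, MYH7, TNNC2, SOD2 and NCF4. The calls of all other genes named below were lost under that correction. Without control replicate 1 the count was 2349 probes, and without 1-week replicate 4 it was 2682.

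Probes called higher were dim, and the share called higher rose with the G and C content of the probe. The median content was 45% for probes called higher, 40% for those called lower and 43.33% for all kept probes. Among named genes the median was 45% both for those called higher and for all. The median control level was -2.64 for the 2510 called higher and 0.72 for the 1148 called lower, against -0.55 for all kept probes. A call of higher itself favours a low control level, so this contrast is partly set by the call. The median 1-week levels of the same sets were -1.59, -0.15 and -0.52. Of the 701 probes with over 55% G and C, 26.11% were called higher and 3.85% lower. Of the 2398 probes with at most 35%, 2.29% were called higher and 8.42% lower. The same gradient was present among probes well above background on all 8 arrays, where 25.09% and 1.68% of the same bins were called higher. The gap between GC-rich probes (over 45%, 3361 probes) and GC-poor probes (at most 40%, 7433 probes), each as the median deviation from its mean over the 20 arrays, was -0.32, -0.24, -0.23 and -0.14 in control and -0.026, 0.15, 0.056 and 0.51 at 1 week. The groups did not overlap, and the difference was 0.41 (exact two-sided permutation p = 0.02857, the smallest that 4 against 4 arrays can give). At 2 weeks the gap ran from -0.21 to -0.023, at 4 weeks from -0.11 to 0.098 and at 8 weeks from 0.063 to 0.30. After the median of each GC bin was evened out within each array, 3370 probes were called, 2290 higher and 1080 lower, and 2874 of them were among the 3658. Of the 152 named genes 133 kept their call. The part of probe composition, labelling or scan day in single differences was not tested.

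**Figure D1:**
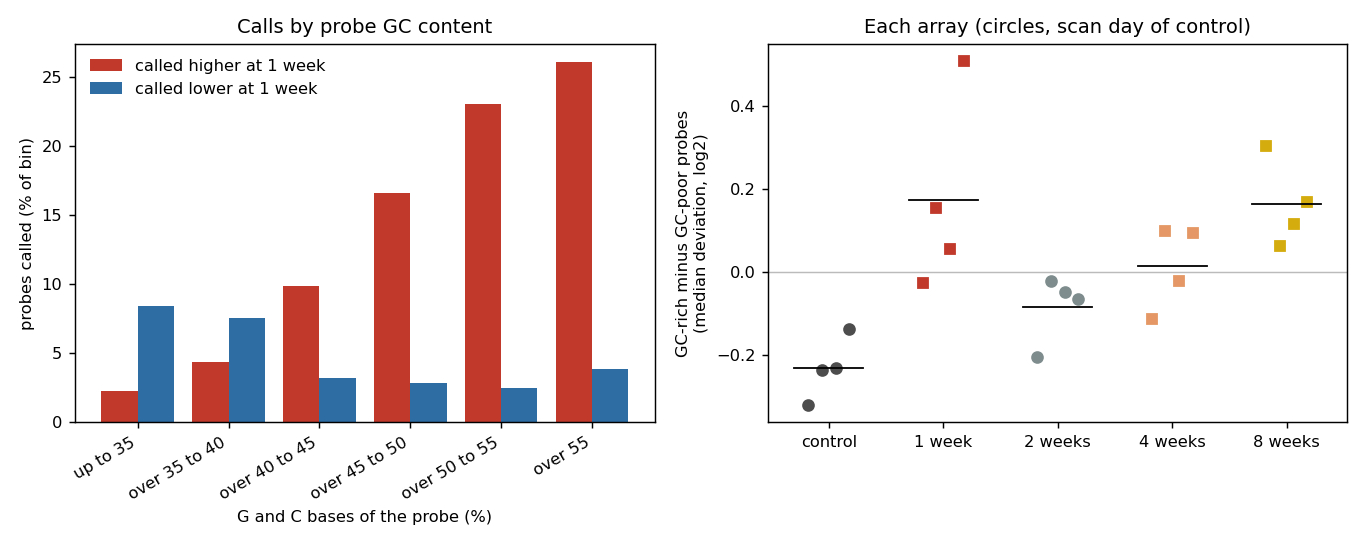
Left, percent of kept probes called higher or lower at 1 week (bars) by the percent of G and C bases in the probe. Right, median deviation of GC-rich minus GC-poor probes on each array (log2 units; points are arrays, lines are means of 4), in which all control arrays lie below all 1-week arrays.

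Of the 6 measured genes of hyaline cartilage, 1 was called higher and none lower, and their median difference was 1.12 (1.06 with SOX9 at the bound explained below), against 0.0089 over all named genes. SOX9, the transcription factor that sets chondrocyte identity, had levels of -3.67, -2.88, -3.18 and -1.57 at 1 week and ran from -4.99 to -3.98 in control. The groups did not overlap, but no control array was well above background, so the gene was at least 1.99-fold higher (limma adjusted p = 0.0187). Here and below, "at least" is the fold over a bound, for which each dim array counts at the dimmest signal still well above background, or at its own signal if that is greater. The call was lost without 1-week replicate 4, control replicate 1 or control replicate 3 (adjusted p up to 0.0639). The mean level was -4.47 at 2 weeks, -3.58 at 4 weeks and -4.27 at 8 weeks. The SOX9 probe is 60% G and C, and the call remained after the GC correction (adjusted p = 0.0241) but not with the 8 arrays alone (0.0758), with quantile normalization (0.0562) or without control replicates 1 and 2 (0.107).

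The proteoglycan core gene ACAN was at -1.92, -1.26, -1.91 and 0.11 at 1 week and -1.96, -2.46, -2.70 and -1.96 in control. All 4 arrays at 1 week lay above control, replicates 1 and 3 by little, and the difference of 1.03 ± 0.38 (SE) missed the threshold (limma adjusted p = 0.083). COL2A1 differed by 1.16 ± 0.53 (adjusted p = 0.154) and CNMD, which encodes the cartilage protein chondromodulin, by 2.31 ± 0.83 (adjusted p = 0.0725), and neither was called. The levels of CNMD were 2.86, 3.59, 4.63 and 6.69 at 1 week and 0.85, 1.57, 2.56 and 3.56 in control, with overlap. HAS2, a hyaluronan synthase, differed by 1.09 ± 0.43 (adjusted p = 0.0993). CLU, the secreted chaperone clusterin, went the other way, with all 4 arrays at 1 week below control, by -0.58 ± 0.19 (adjusted p = 0.0518). Replicate 4 of the 1-week group held the highest level of COL2A1, ACAN, CNMD and SOX9. In CNMD the 4-week mean, 4.53, was near the 4.44 of 1 week, and the 2- and 8-week means, 1.78 and 1.90, were near the 2.13 of control.

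Among the 9 measured genes of chondrocyte hypertrophy and bone, 2 were called higher and none lower, with a median difference of 0.61 and 8 of 9 differences above 0. IHH, the hedgehog ligand of prehypertrophic chondrocytes, was at -0.97, -0.069, -0.58 and 1.89 at 1 week and at -2.65, -2.28, -1.06 and -1.60 in control. The groups did not overlap, and IHH rose by 1.97 ± 0.54 (SE, adjusted p = 0.0224). PTH1R, the receptor that receives parathyroid hormone-related protein, was at 4.97, 5.27, 5.46 and 7.43 at 1 week and 4.35, 4.64, 4.64 and 4.77 in control. It rose by 1.19 ± 0.39 (adjusted p = 0.0491), again with every 1-week array above control. IHH lost its call when 1-week replicate 4, control replicate 1 or control replicate 2 was left out (highest adjusted p = 0.0762). PTH1R lost it when 1-week replicate 3, 1-week replicate 4 or any 1 control array was left out (highest 0.116), after the GC correction (0.0575), with median centring (0.0612) and with no filter on dim probes (0.0739). With the 8 arrays alone neither IHH nor PTH1R was called (adjusted p = 0.113 and 0.202).

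Type X collagen, the matrix product of hypertrophic chondrocytes, was not called. COL10A1 stood at 6.75, 8.44, 7.23 and 9.85 at 1 week and 4.75, 5.11, 7.43 and 5.92 in control, a difference of 2.26 ± 0.87 (adjusted p = 0.0905) in which control replicate 3 overlapped the 1-week arrays. RUNX2, the transcription factor of hypertrophy and bone formation, differed by 0.41 ± 0.18 (adjusted p = 0.128) and SPP1, the bone matrix protein osteopontin, by 0.30 ± 0.21 (adjusted p = 0.36). In IHH the 4-week mean was -0.60 and those of 2 and 8 weeks -1.48 and -1.66, beside 0.070 at 1 week and -1.90 in control. In COL10A1 the 4-week mean was 7.59 and those of 2 and 8 weeks 5.71 and 5.38.

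The array probes behind these values are shown because their composition differs. Each reads 5′ to 3′, with G and C in capitals, and the first 3 have 60%, 66.7% and 55% of these bases and the last 43.3%.
SOX9: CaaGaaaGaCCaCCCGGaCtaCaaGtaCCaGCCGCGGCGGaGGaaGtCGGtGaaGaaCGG
IHH: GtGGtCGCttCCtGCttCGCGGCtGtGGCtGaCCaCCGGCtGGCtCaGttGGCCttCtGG
ACAN: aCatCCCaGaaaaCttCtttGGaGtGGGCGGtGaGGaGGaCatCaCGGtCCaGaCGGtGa
COL10A1: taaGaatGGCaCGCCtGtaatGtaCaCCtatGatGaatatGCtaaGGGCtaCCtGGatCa

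**Figure D2:**
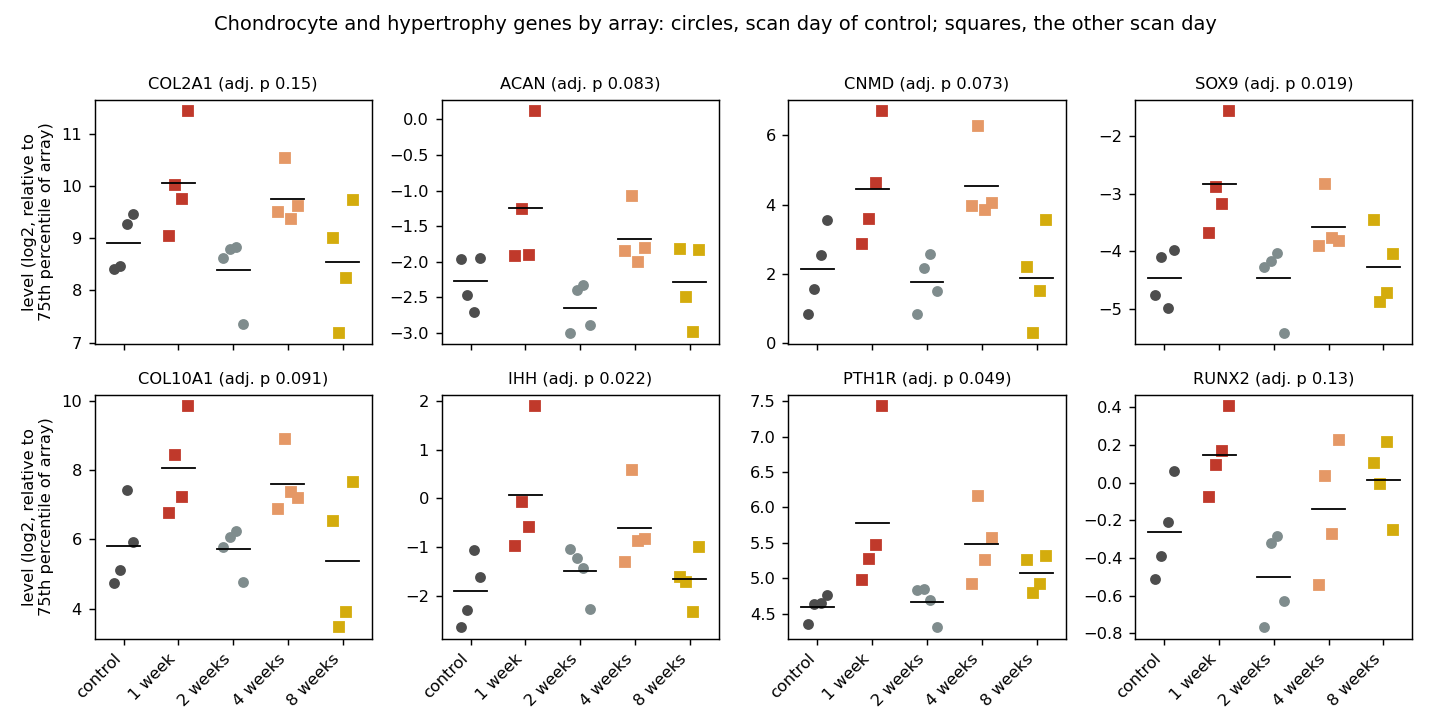
Level of 8 chondrocyte and hypertrophy genes on each of the 20 arrays (log2 units relative to the 75th percentile of the array; points are arrays, lines are means of 4; adjusted p of 1 week against control above each panel). Replicate 4 is the highest 1-week array in all 8 panels, and the 4-week arrays lie nearer to 1 week than the 2-week arrays do in COL2A1, CNMD and COL10A1.

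Of the 8 measured genes of the WNT and hedgehog pathways, 3 were called higher and 1 lower (12.4% and 8.55% of all named genes were). WNT11, a ligand of the pathway that does not run through beta-catenin, was at -1.04, -0.22, -1.04 and 0.68 at 1 week and -3.12, -2.71, -2.15 and -2.40 in control. It rose 4.57-fold (2.19 ± 0.48 SE in log2, adjusted p = 0.00545), with no overlap. Its means were -2.27, -1.84 and -2.81 at 2, 4 and 8 weeks. FRZB, a secreted WNT antagonist made by chondrocytes, was at 4.45, 4.89, 4.65 and 5.72 at 1 week, against a control mean of 3.63 ± 0.33 (SD, n = 4). It rose 2.46-fold without overlap (adjusted p = 0.0165), and all 7 of its probes were higher, by 1.15 to 1.32. WNT3, a ligand of the beta-catenin pathway, fell by 1.63 on the log2 scale (adjusted p = 0.013), and 2 of the 4 arrays at 1 week were well above background. Both FRZB and WNT11 were also called with the 8 arrays alone (adjusted p = 0.0419 and 0.0181), while FRZB lost its call without 1-week replicate 4 (adjusted p = 0.0597). Without control replicates 1 and 2, no gene of this list, of hyaline cartilage or of hypertrophy and bone was called.

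None of the 7 measured TGF-beta and BMP genes was called by limma. The count was 0 at an unadjusted p under 0.05 as well, and 0 in the fit to the 8 arrays alone. TGFB1, a growth factor stored in cartilage matrix, differed by 0.071 ± 0.20 (adjusted p = 0.841) and BMP2, a bone morphogenetic protein, by 0.46 ± 0.37 (adjusted p = 0.427). Of the 11 growth factors and receptors, 2 were called higher and 1 lower (12.4% and 8.55% of all named genes were). PRLR, the prolactin receptor, was at -2.02, -1.93, -1.90 and -1.49 at 1 week and -3.70, -3.95, -3.69 and -3.02 in control and rose by 1.75 ± 0.16 (SE, adjusted p = 1.09e-06). Its means were -3.19 at 2 weeks and -2.32 at both 4 and 8 weeks. IGF1R, the receptor for insulin-like growth factor, rose by 0.67 ± 0.13 (adjusted p = 0.00163). FGF7, a growth factor of mesenchyme, fell by 2.37 on the log2 scale (adjusted p = 0.0483), with 1 of 4 arrays well above background at 1 week. The call of this FGF7 probe was lost without any 1 array except control replicate 4 (adjusted p up to 0.131). The other kept probes of FGF7 differed by -3.13 to -2.43 and were called (limma adjusted p from 0.00345 to 0.0173). CCN2, a matricellular growth factor of chondrocytes, differed by 1.19 ± 0.43 (adjusted p = 0.0736).

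Of 10 measured genes of fibrous matrix, 1 was called, and their median difference was -0.063. LUM, which encodes lumican, a proteoglycan that spaces collagen fibrils, was at 6.07, 5.93, 5.78 and 5.04 at 1 week and 7.78, 7.28, 6.87 and 6.21 in control. The groups did not overlap, and LUM fell 2.51-fold (adjusted p = 0.0103). The other LUM probe differed by -1.43. The level was 6.48 at 2 weeks, 5.89 at 4 weeks and 5.85 at 8 weeks. COL1A2, a chain of type I collagen, differed by 0.054 ± 0.20 (adjusted p = 0.886). FN1, fibronectin, differed by -0.57 ± 0.23 (adjusted p = 0.105), DCN, the proteoglycan decorin, by -0.90 ± 0.43 (0.165) and VCAN, the proteoglycan versican, by -1.05 ± 0.38 (0.0711).

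Among 23 measured matrix proteases and inhibitors, 1 was called higher and 2 lower (12.4% and 8.55% of all named genes were). PLAU, the urokinase that activates plasmin, was at 2.44, 2.68, 2.23 and 1.73 at 1 week and 3.68, 3.44, 3.58 and 2.61 in control. Only 1-week replicate 2 exceeded a control array, replicate 4 at 2.61, and PLAU fell 2.08-fold (1.06 in log2, SE 0.23, adjusted p = 0.00555). SERPINB2, an inhibitor of urokinase, was not well above background on any control array and at 1 week was higher by at least 2.56-fold (adjusted p = 0.000211). CTSL, the lysosomal protease cathepsin L, fell by 0.35 (adjusted p = 0.0489), and lost its call without 5 of the 8 arrays taken one at a time (1-week replicates 3 and 4 and control replicates 1, 2 and 3), with quantile normalization (0.0534) and with the 8 arrays alone (0.205). The collagenase gene MMP13 was at 7.15, 7.32, 7.34 and 5.92 at 1 week and 7.34, 7.57, 7.88 and 7.45 in control, and its difference of -0.63 ± 0.26 was not called (adjusted p = 0.116). MMP1, another collagenase, stood at -4.77, -4.70, -4.18 and 0.65 at 1 week and 0.91, -0.15, -1.51 and -0.11 in control. The first 3 arrays at 1 week were low and replicate 4 was as high as control, and the difference of -3.04 ± 1.36 was not called (adjusted p = 0.143). MMP3, MMP9 and TIMP1 differed by -0.34, 0.20 and 0.25 and were not called.

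Of 5 measured osteoclast genes, each read by its brightest kept probe, only ACP5, the tartrate-resistant acid phosphatase of bone-resorbing cells, was called. It stood at 7.74, 8.74, 7.93 and 8.47 at 1 week and 7.71, 7.13, 7.56 and 7.37 in control, with no overlap and a difference of 0.78 ± 0.24 (adjusted p = 0.039). It lost its call when replicate 2 or 4 of 1 week or replicate 2, 3 or 4 of control was left out (highest 0.117), after the GC correction (0.149), with median centring (0.0678), with array weights (0.11), with no filter (0.0625) and with the 8 arrays alone (0.111). CTSK, the collagen-degrading cathepsin of osteoclasts, differed by -0.71 ± 0.32 (adjusted p = 0.142). The integrin gene ITGB3, of the same list, differed by -0.79 on its brightest probe (adjusted p = 0.0794). Its other kept probes were all lower. Those at -0.97 and -0.96 were called (limma adjusted p = 0.0377 and 0.0303), and those at -0.84 and -0.39 were not (0.0725 and 0.369).

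Of 22 measured cytokines, chemokines and mediators of inflammation, 2 were called higher and 5 lower, and their median difference was -0.68. In the fit to the 8 arrays alone 0 were called higher and 2 lower, so most of the calls below rest on the spread shared by all groups. Of all named genes 12.4% were called higher and 8.55% lower. IL18, a cytokine released by inflammasomes, was at -2.05, -1.74, -1.91 and -2.38 at 1 week and -0.50, -0.82, -1.04 and -1.41 in control. It fell 2.11-fold without overlap (adjusted p = 0.00573), and all 7 of its probes were lower, with a median difference of -1.16. IL15, a cytokine for T and NK cells, fell by 0.78 (adjusted p = 0.0178). CCL2, which attracts monocytes, was at -2.14, -1.65, -1.89 and -1.90 at 1 week and -0.68, 0.18, -0.74 and -0.77 in control and fell 2.63-fold (adjusted p = 0.0296). PTGER4, a receptor for prostaglandin E2, fell by 1.12 (adjusted p = 0.0119), with 1-week replicate 4 at -0.76 and the other 3 at 0.53 to 0.73. Its other kept probes did not all follow. Those differing by -1.28 and -1.11 were called, and the dimmer ones, at 0.48 and -0.31, were not (limma adjusted p = 0.154 and 0.417). TLR4, the receptor for endotoxin, named after its value was seen, fell by 0.79 (adjusted p = 0.0379).

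Among these 5, IL18 and PTGER4 kept their call whichever 1 array was left out. IL15 was lost without 1-week replicate 4 or control replicate 1 (adjusted p up to 0.0691), CCL2 when replicate 1, 3 or 4 of 1 week or replicate 1 or 2 of control was left out (0.097) and TLR4 when replicate 1 or 4 of 1 week or replicate 1, 2 or 3 of control was (0.12). The 2-week means lay between the groups for IL18, at -1.18 beside -0.94 in control and -2.02 at 1 week, and for TLR4, at -0.39. IL1B, IL1RN and PTGS2, further genes of acute inflammation, differed by -1.62, -0.78 and -0.67 and were not called (adjusted p = 0.112, 0.0977 and 0.231).

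CXCL8, the chemokine that draws neutrophils, was called higher by 1 set of probes and lower by another. The value of the brightest of 4 kept probes was -1.51, -0.90, -0.26 and -0.27 at 1 week and -2.35, -2.36, -1.28 and -2.25 in control, higher by 1.33 ± 0.28 (SE, adjusted p = 0.00372). Control replicate 3 overlapped the 1-week arrays. Neighbouring probes that share 58 bases with it were higher by 1.24 and 0.74, the latter not called (adjusted p = 0.0469 and 0.0569). The fourth probe, annotated to the same transcript with no run of over 5 bases in common with these, was at -4.57, -3.73, -3.71 and -3.64 at 1 week and -2.82, -2.06, -0.33 and -2.33 in control. It was lower by 2.03 on the log2 scale without overlap (adjusted p = 0.0139). The fourth probe has 35% G and C, and the others 43.3% to 45%. The direction of CXCL8 is therefore not settled by these probes. The 3 neighbouring probes are shown 5′ to 3′ with their shared stretch in capitals, since they read the same bases and are not separate evidence.
A_04_P004968: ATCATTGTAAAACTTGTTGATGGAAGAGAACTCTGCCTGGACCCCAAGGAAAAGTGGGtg
A_04_P004969: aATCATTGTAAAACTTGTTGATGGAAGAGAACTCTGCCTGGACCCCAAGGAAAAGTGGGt
A_04_P004970: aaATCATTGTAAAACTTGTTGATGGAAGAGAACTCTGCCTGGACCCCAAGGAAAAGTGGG

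TNF, tumour necrosis factor, showed a like split. Its 3 brighter probes were higher by 0.97, 0.81 and 0.83 (adjusted p = 0.026, 0.0204 and 0.0272). The 2 dimmer ones differed by -0.51 and -0.68 and were not called. Whether these probes share bases was not tested, so the 3 brighter ones may not be separate evidence. On the brightest probe the levels were -2.37, -1.43, -1.96 and -1.72 at 1 week and -3.46, -2.12, -2.67 and -3.12 in control, with overlap. It lost its call when replicate 2 or 4 of 1 week or replicate 1 or 4 of control was left out (highest adjusted p = 0.0931).

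Markers of neutrophils, the cells that CXCL8 attracts, did not move together. CXCR2, the neutrophil receptor for CXCL8, was at -0.41, -0.20, -0.19 and 0.44 at 1 week and -1.89, -1.82, -1.54 and -1.31 in control and rose 2.92-fold (adjusted p = 1.97e-05), with means of -1.65, -0.30 and -0.50 at 2, 4 and 8 weeks. The granule and cytoplasmic protein genes CAMP and S100A8 lay lower at 1 week on all 4 arrays, by -3.12 and -2.83, but were not called (adjusted p = 0.292 and 0.255). S100A8 was at 0.15, -1.50, 0.56 and 0.71 at 1 week and 1.74, 2.35, 2.18 and 4.99 in control, and ran from 1.19 to 5.95 at 4 weeks. The median level of the 5 measured neutrophil markers ran from -1.50 to -0.64 at 1 week and from -1.83 to -0.40 in control. The median of the 5 macrophage markers ran from -3.74 to -1.75 at 1 week and was 0.15, -1.14 and 0.093 in control replicates 1 to 3, with replicate 4 of control lower and within the 1-week range. TLR4 was the one called. The part of cell makeup in these differences was not tested. Of 9 measured complement and coagulation genes 1 was called higher and 1 lower (12.4% and 8.55% of all named genes were). C9, a pore-forming complement protein, rose by 0.75 ± 0.13 (adjusted p = 0.000632). C1R, a protease that starts the classical pathway, fell by 0.92 (adjusted p = 0.00248). Only 1 of the 9 differences, that of C9, was above 0, and the median difference was -0.55. In the fit to the 8 arrays alone 0 were called higher, so C9 lost its call, and 2 lower.

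**Figure D3:**
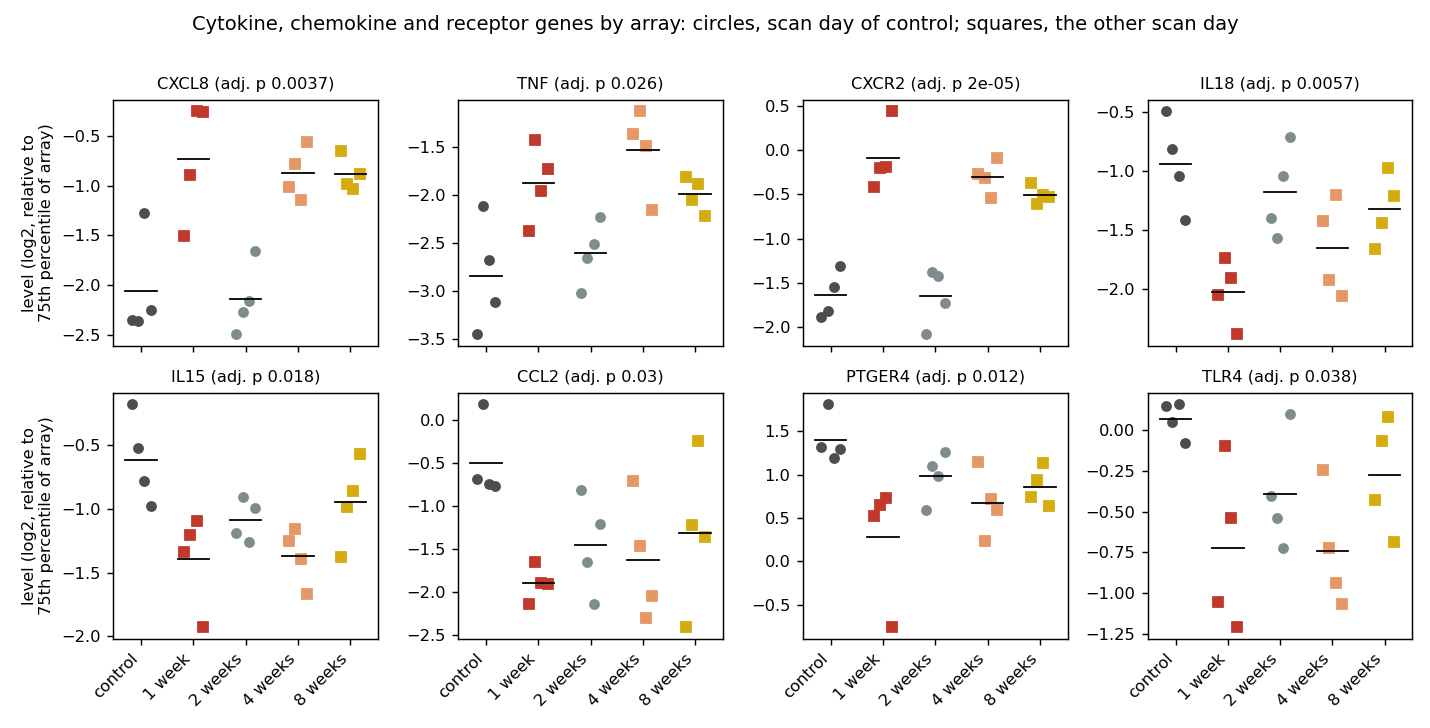
Level of 8 cytokine, chemokine and receptor genes on each of the 20 arrays (log2 units relative to the 75th percentile of the array; points are arrays, lines are means of 4). CXCR2 lies between -0.41 and 0.44 at 1 week and between -1.89 and -1.31 in control, while IL18 and IL15 lie lower at 1 week than in control.

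Genes of skeletal muscle were lower at 1 week by wide margins. Of 27 measured genes 14 were called lower (8.55% of all named genes were) and 1 higher, with a median difference of -2.79 (-2.71 with genes below background in 1 group at their bound). In the fit to the 8 arrays alone 1 of the 27 was called lower, MYH7 (adjusted p = 0.041), and 1 higher. TNNC2, the calcium sensor of fast fibres, was at -0.22, -1.92, -1.43 and -1.66 at 1 week and 5.57, 7.73, 1.98 and 0.97 in control. MYH8, a myosin heavy chain of developing and jaw muscle, was at -3.25, -5.94, -6.53 and -5.01 against 2.59, 5.46, -2.70 and -2.14. MYH7, the slow myosin heavy chain, was at -0.74, -4.16, -3.46 and -4.48 against 2.21, 3.47, 1.05 and -0.76. In each, control replicates 1 and 2 were the highest arrays. The 1-week arrays lay wholly below control in TNNC2 and MYH8, while in MYH7 replicate 1 of 1 week, at -0.74, overlapped replicate 4 of control, at -0.76.

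TNNC2 fell by 5.37 ± 1.05 (SE), MYH7 by 4.71 ± 0.76 and the gene of myosin heavy chain IIa, listed as LOC100008687, by 6.33 ± 1.19 on the log2 scale (adjusted p = 0.00213, 0.000387 and 0.00147). MYH7 was well above background on 2 of 4 arrays at 1 week and LOC100008687 and MYH8 on 1, so these sizes rest in part on dim arrays. NEB, a giant protein of the thin filament, had no array well above background at 1 week and was at least 6.52-fold lower (adjusted p = 0.00368). ACTA1, skeletal actin, was at -4.59, -5.09, -4.64 and -4.91 at 1 week, with 1 array well above background, and -2.37, 0.0065, -3.20 and -3.69 in control, with 3 (adjusted p = 0.0048). On the log2 scale SRL, a protein of the calcium store, fell by 2.85 (0.00527) and TPM1, a tropomyosin made in many tissues, by 1.29 (0.004). TPM1 averaged 3.17 ± 0.23 (SD, n = 4) at 1 week and was at 4.25, 5.43, 4.25 and 3.89 in control, without overlap. SLC2A4, the insulin-responsive glucose transporter of muscle and fat, fell by 3.23 (adjusted p = 0.0392), with 1 of 4 arrays above background at 1 week, but lost that call without any of 6 arrays taken one at a time (1-week replicates 2, 3 and 4 and control replicates 1, 2 and 3, up to 0.119). SYPL2, a protein of the muscle triad, fell by 3.35 (0.0391), with 2 of 4 arrays above background at 1 week, and lost its call without any 1 array except control replicates 3 and 4 (0.109).

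Without control replicates 1 and 2 the median difference of the list was -0.92 and 9 of its genes were called, MYH7, TNNC2, NEB, ACTA1 and TPM1 among them and MYH8 and TTN, the spring protein titin, not (adjusted p = 0.082 and 0.061). The 9 measured markers of muscle fibres had a median level of 2.21, 4.38, -0.77 and -1.63 on the 4 control arrays and -1.98, -4.16, -3.84 and -3.80 at 1 week. Low levels were not peculiar to 1 week. TNNC2 averaged -2.23, -3.04 and -2.92 at 2, 4 and 8 weeks, and NEB -5.59, -5.58 and -6.16. In bulk tissue fewer cells of a type and less RNA per cell cannot be told apart, and the amount of muscle in each piece was not tested. The 1 muscle gene called higher was PLN, phospholamban, an inhibitor of the calcium pump in slow fibres and heart, named after its value was seen. It was at -4.26, -4.39, -3.91 and -2.15 at 1 week and -6.28, -5.32, -6.06 and -5.76 in control, where no array was well above background (adjusted p = 0.00614).

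A pair of probes of this group are shown, 5′ to 3′ with G and C in capitals, because their GC content, 43.3% and 45%, is near the median of all kept probes, 43.3%.
NEB: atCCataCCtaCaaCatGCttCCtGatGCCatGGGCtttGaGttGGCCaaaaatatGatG
TTN: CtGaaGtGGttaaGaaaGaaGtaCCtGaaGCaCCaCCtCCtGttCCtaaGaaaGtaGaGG

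**Figure D4:**
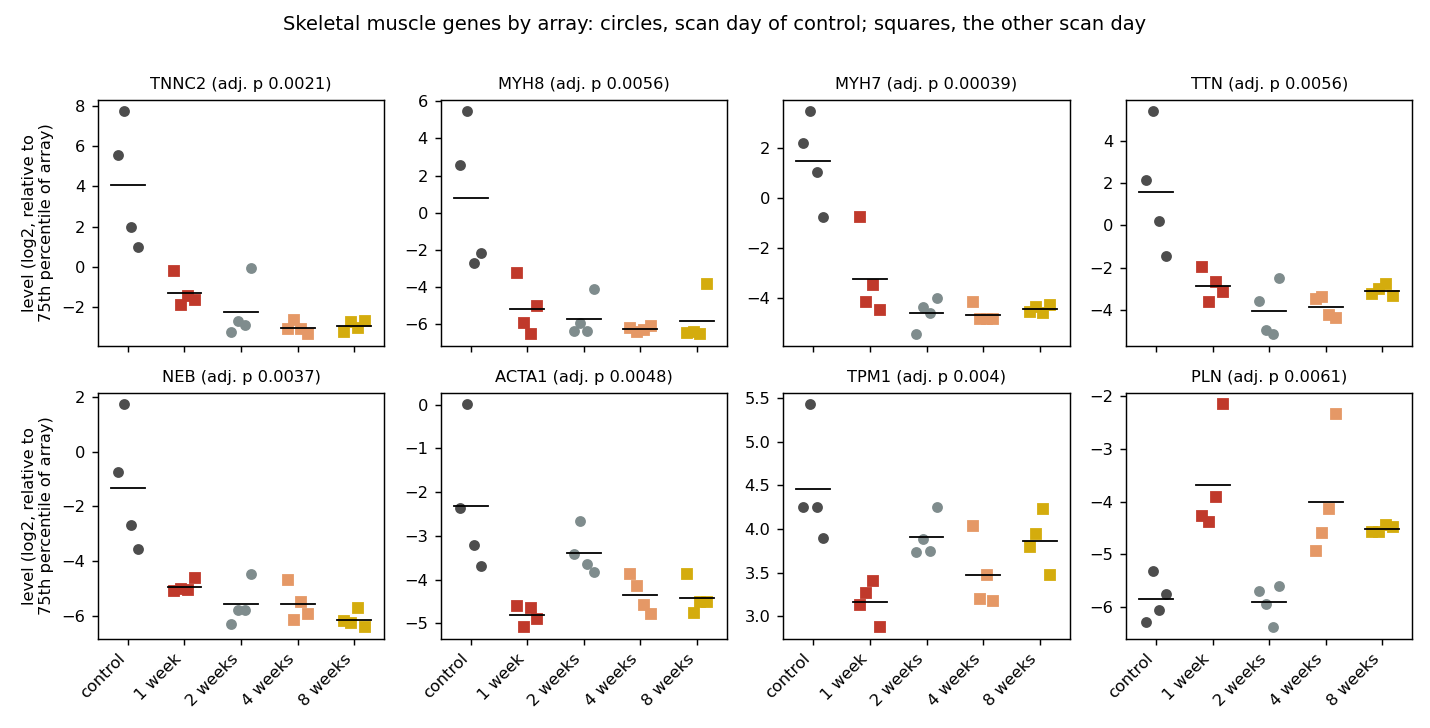
Level of 8 skeletal muscle genes on each of the 20 arrays (log2 units relative to the 75th percentile of the array; points are arrays, lines are means of 4). Control replicates 1 and 2, the first points from the left, are the highest of all 20 arrays from TNNC2 to ACTA1, control replicate 2 is the highest in TPM1, and in PLN the 1-, 4- and 8-week arrays lie above control.

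Genes of channels, transporters and junction proteins were called in both directions at 1 week. Of 38 measured ion channel genes 8 were called higher and 3 lower (median difference 0.17), of 32 solute carriers 9 and 2 (0.13), of 12 ATP-driven pumps and transporters 2 and 4 (-0.39) and of 5 gap and tight junction genes 2 and none (0.043), beside 90 higher and 62 lower over all named genes. With each array centred on its median the counts were 8 and 6 for ion channels, 8 and 5 for solute carriers, 2 and 4 for pumps and 2 and 1 for junction genes. GJA10, a connexin, was at -2.65, -2.67, -2.65 and -2.10 at 1 week and -5.71, -5.71, -5.49 and -5.20 in control. No control array was well above background, and GJA10 was higher by at least 2.46-fold (adjusted p = 4.1e-09). It averaged -5.56 at 2 weeks, with no array above background, and -3.02 and -3.08 at 4 and 8 weeks, with all 8 arrays above it. GJA5, a connexin of vessel walls and heart, was above background on all 8 arrays, at -0.73, -0.78, -0.51 and 0.075 at 1 week and -2.23, -1.76, -1.98 and -1.81 in control. It rose 2.75-fold (1.46 ± 0.17 SE, adjusted p = 1.82e-05), and the call remained with normexp correction (adjusted p = 0.0415). Its 2-week mean, -1.03, lay closer to the -0.64 and -0.65 of 4 and 8 weeks than to control. GJA1, the main connexin of chondrocytes and bone cells, differed by -0.41 ± 0.24 and was not called (adjusted p = 0.273).

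KCNK3, an acid-sensitive potassium leak channel, was at -3.68, -3.39, -3.46 and -3.01 at 1 week and -5.37, -5.59, -4.92 and -5.34 in control, at least 1.35-fold higher (adjusted p = 7.09e-07). KCNA5, a voltage-gated potassium channel, was at -2.37, -2.33, -2.40 and -1.99 against -3.87, -3.17, -3.97 and -3.21 and rose 2.44-fold (adjusted p = 3.52e-05). HTR3A, a serotonin-gated channel, was at -0.76, -0.57, -0.50 and 0.34 against -2.02, -1.99, -1.87 and -1.83 and rose 2.95-fold (adjusted p = 1.89e-05). None of these 3 overlapped between groups, and their 2-week means of -4.65, -3.27 and -1.96 were nearer to control than to 1 week. CACNA1E, a voltage-gated calcium channel, rose by 2.26 ± 0.33 (SE, adjusted p = 0.000145), with 2 of 4 control arrays well above background. HCN4, a pacemaker channel, was at -3.83, -4.49, -3.54 and -3.60 at 1 week and -2.15, -2.62, -2.38 and -2.47 in control and fell by 1.46 (adjusted p = 0.00678). At 1 week 2 of 4 arrays were well above background for HCN4, and its probe is 61.7% G and C.

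Among the carriers, SLC12A3, a sodium-chloride cotransporter known from the kidney, was at -2.63, -2.65, -2.64 and -2.14 at 1 week and -5.30, -4.80, -4.95 and -4.33 in control, at least 2.47-fold higher (adjusted p = 1.76e-07). SLC4A4, a sodium bicarbonate cotransporter, was above background on all 8 arrays and rose 4.87-fold (2.29 ± 0.39, adjusted p = 0.000607), though its 4 probes ranged from 0.34 to 2.29. SLC29A2, a nucleoside carrier, and SLC22A6, an organic anion carrier, rose by 1.44 ± 0.17 and 1.04 ± 0.11 (adjusted p = 1.45e-05 and 7.66e-06). SLC47A2, a carrier that extrudes drugs and toxins, was not above background in control and was at least 1.77-fold higher (2.42e-06). Of the pumps, ATP6V0A1, a subunit of the proton pump that acidifies vesicles, rose by 1.44 ± 0.20 (adjusted p = 0.000106), with 1 of 4 control arrays above background. ABCC9, a regulatory subunit of potassium channels, fell by 0.99 (0.0137) and ATP11B, a lipid flippase, by 0.51 (0.0148). ABCC9 lost its call without control replicate 2 (0.0514) and ATP11B after the GC correction (0.083).

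These 3 probes are shown, 5′ to 3′ with G and C in capitals, since the genes have the smallest adjusted p of their families and their probes differ in composition, with 43.3%, 60% and 55% of these bases.
GJA10: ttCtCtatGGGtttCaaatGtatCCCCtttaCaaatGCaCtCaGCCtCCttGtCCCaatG
KCNK3: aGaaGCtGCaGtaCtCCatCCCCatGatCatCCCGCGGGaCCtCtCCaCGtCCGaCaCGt
SLC12A3: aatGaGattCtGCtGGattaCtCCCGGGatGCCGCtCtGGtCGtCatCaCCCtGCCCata

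**Figure D5:**
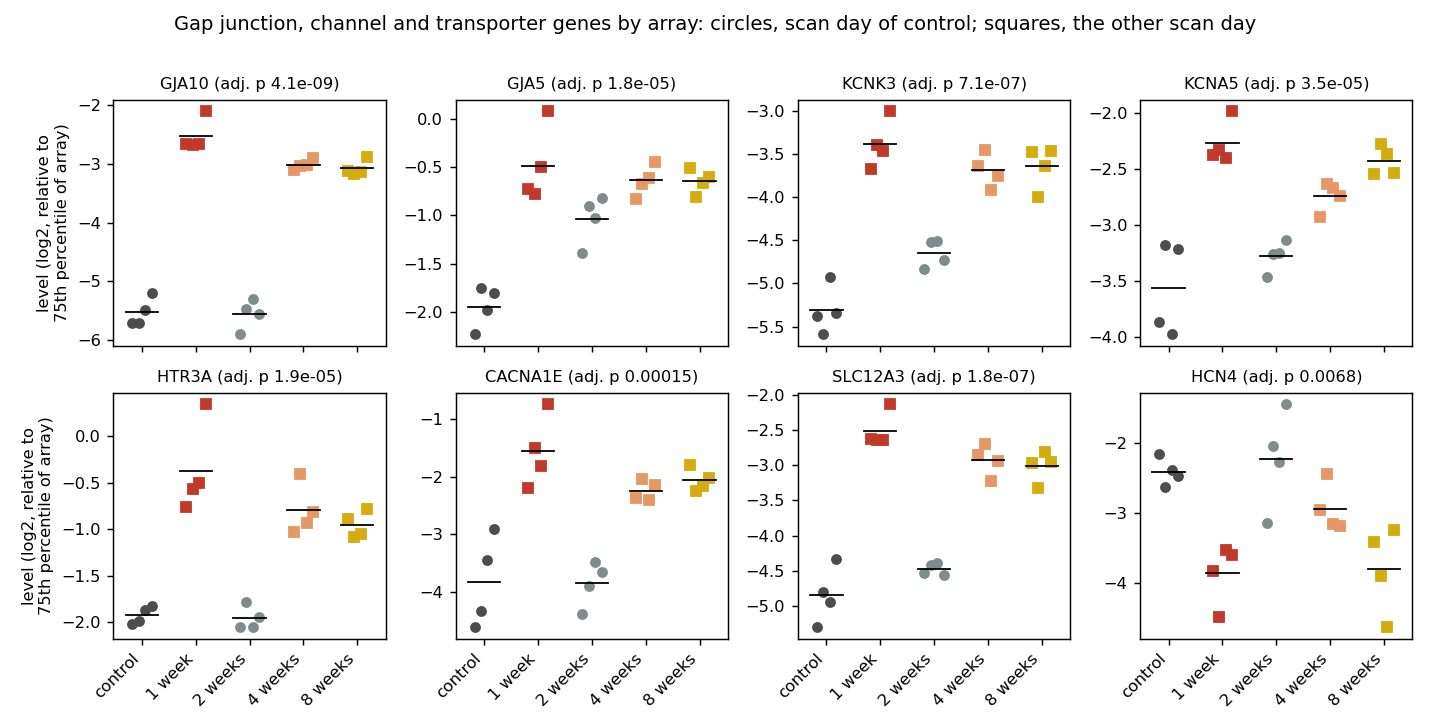
Level of 8 gap junction, channel and transporter genes on each of the 20 arrays (log2 units relative to the 75th percentile of the array; points are arrays, lines are means of 4). In GJA10, KCNK3, HTR3A and SLC12A3 the control and 2-week arrays (circles) are low and the 1-, 4- and 8-week arrays (squares) high, and HCN4 is lower at 1 week than in control.

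Of 15 measured genes of lipid handling 4 were called higher and none lower (12.4% and 8.55% of all named genes were). PPARA, the receptor that switches on fatty acid oxidation, was at -2.81, -1.25, -2.40 and -0.72 at 1 week and -5.97, -5.09, -4.41 and -4.94 in control, and was at least 4.06-fold higher (adjusted p = 7.42e-05). All 4 of its probes were higher, with a median difference of 3.05, and its means were -3.79 at 2 weeks and -2.76 at 4 weeks. APOC4, an apolipoprotein, was at -2.03, -0.70, -1.93 and -0.22 against a control mean of -3.78 ± 0.39 (SD, n = 4), with means of -3.84, -1.83 and -2.12 later. Neither overlapped, and neither was above background on a control array. APOA1, the main protein of high-density lipoprotein, was at -5.28, -2.46, -3.33 and -0.44 at 1 week and -5.23, -6.11, -5.81 and -5.54 in control, with overlap at 1-week replicate 1, and was at least 1.92-fold higher (adjusted p = 0.0143). LEP, the fat hormone leptin, rose by 1.33 ± 0.35 (adjusted p = 0.0188) with 2 control arrays above background, and lost its call without 1-week replicate 4 or control replicates 1 or 3 (up to 0.059) and after the GC correction (0.0528).

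Of 21 genes matched as G protein-coupled receptors, HTR3A, which is a channel, among them, 7 were called higher and 1 lower. Apart from CXCR2, PTH1R and PTGER4, CXCR5, the B-cell homing receptor, rose by 0.98 ± 0.20 (adjusted p = 0.00305). Of 22 enzymes of drug and steroid metabolism 4 were called higher and 1 lower. For both lists, the shares over all named genes were 12.4% higher and 8.55% lower. CYP4B1, a fatty acid and drug hydroxylase, was at -0.11, 0.064, -0.14 and 0.18 at 1 week and -1.07, -1.23, -0.84 and -0.52 in control and rose 1.88-fold (adjusted p = 0.000795). PON3, a lactonase, rose by 1.58 ± 0.29 in log2 (0.00119), with its 3 probes from 0.57 to 1.58. FMO2, a flavin monooxygenase, was at least 2.35-fold higher (5.61e-05), and CYP7A1, the rate-limiting enzyme of bile acid synthesis, fell 1.88-fold (0.00968). The CYP7A1 probe was bright, with means of 6.32 at 1 week and 7.23 in control. Its name rests on the array annotation, and what the probe binds was not tested. Genes of epithelial barriers had 2 of 4 members called higher, UPK1B and CASP14, a uroplakin and a caspase of the skin. CASP14 was at -3.59, -2.73, -3.17 and -1.68 at 1 week and -6.33, -5.09, -5.99 and -5.71 in control, where no array was above background. Its 2-week mean was -5.28 and its 4- and 8-week means -3.32 and -3.44. CDH16, a kidney cadherin, was at least 1.61-fold higher (adjusted p = 3.18e-06).

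Of 7 measured stress and early response genes 1 was called in each direction. EGR1, an early response transcription factor, was at -3.18, -2.70, -3.19 and -1.73 at 1 week and -4.04, -4.38, -4.06 and -3.81 in control, at least 2.17-fold higher (adjusted p = 0.0142). SOD2, the mitochondrial superoxide dismutase, was at -0.64, -0.51, -0.55 and -1.06 at 1 week and -0.076, 0.11, 0.26 and 0.12 in control, with all arrays above background and no overlap. It fell by 0.79 (SE 0.14, adjusted p = 0.000692), its 5 probes by 0.75 to 1.00, and the call remained with normexp correction (adjusted p = 0.0471) and without any 1 array (up to 0.00331). Its mean was 0.021 at 2 weeks, -0.11 at 4 weeks and -0.61 at 8 weeks. GPX1, another antioxidant enzyme, differed by -0.42 ± 0.15 (adjusted p = 0.0647). CASP2, a caspase, was higher by at least 1.33-fold (adjusted p = 0.00961).

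By limma on the brightest probe of each gene, no gene of the cell cycle (6 measured) or of protein folding in the endoplasmic reticulum (3 measured) was called. At an unadjusted p under 0.05 the counts on the same probes were 2 and 0, and with the 8 arrays alone they were 0 and 0. Probes of the cell cycle inhibitor CDKN1B disagreed. Its brightest differed by -0.16 (limma adjusted p = 0.535). Dimmer ones at -0.59, -0.49 and -0.41 were called lower (0.00522, 0.0223 and 0.0421), and the rest, from -0.38 to 0.062, were not called. Of 13 genes of glycolysis and hypoxia SLC2A4 alone was called on its brightest probe. A dimmer probe of HIF1A, at -0.78, was called lower (limma adjusted p = 0.0163), and its brighter ones, at -0.52 and -0.62, were not (0.16 and 0.142). CCNA2, a cyclin of dividing cells, differed by -0.47 ± 0.20 (adjusted p = 0.122) and CALR, the chaperone calreticulin, by 0.0013 ± 0.12. GAPDH and ACTB, often used as reference genes, differed by 0.23 ± 0.23 and -0.041 ± 0.12 (adjusted p = 0.535 and 0.86). The other kept probes of ACTB ran from -3.52 to -0.0077. Those at -3.52 and -3.15 were called lower (limma adjusted p = 0.0364 and 0.0155), so the probes of ACTB do not give 1 answer. GYG1, the primer of glycogen synthesis, named because it was among the 6 genes called with normexp correction, was at 2.42, 3.08, 2.48 and 4.59 at 1 week and 0.50, 1.07, 1.53 and 0.93 in control. It rose 4.38-fold without overlap (2.13 ± 0.41, adjusted p = 0.00193), and its means at 2, 4 and 8 weeks were 0.98, 2.11 and 0.90. NCF4, a subunit of the phagocyte oxidase called under the same correction, was at -0.21, 0.23, 0.092 and -0.11 at 1 week and 1.26, 0.84, 1.24 and 1.04 in control. It fell 2.14-fold (adjusted p = 0.0172), a call lost without control replicate 1 (0.051).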

How the data were processed

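Agilent one-colour (Cy3) rabbit arrays gave spot signals through Agilent Feature Extraction 10.7.1.1, per the submitters' processing notes. The deposited files hold the intensity of each spot, background-subtracted within the array and not scaled between arrays, per the file headers. The deposited value table holds the same intensity for each probe to within rounding, and on it 3637 probes were called. Control spots and outlier spots were left out and spots of one probe averaged. The intensity deposited by the authors was divided by the 75th percentile of each array and put on the log2 scale. Of 43603 probes, 25467 (58.41%) were kept, those well above background on at least 3 of 4 arrays of either group. A linear model over all 20 arrays was fitted to the log2 values made from the deposited intensities with limma 3.58.1 (R 4.3.3), so that all groups share 1 estimate of the spread, and p was adjusted over all kept probes by the Benjamini-Hochberg method. The 1-week group varied more than the others and than the shared estimate. The median SD of a kept probe was 0.319 at 1 week and 0.217 in control. It was 0.229, 0.205 and 0.195 at 2, 4 and 8 weeks. The fit was tested on simulated data with the same spread in all groups.

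The columns and descriptions of the files, with RefSeq gene tables (assembly mOryCun1.1), named 3269 probes (7.497%) of 1065 genes. A gene is given by its kept probe of highest mean. The members and gene lists were chosen with earlier results of these data known. The rule names, of called genes without overlap between groups, the 14 that rose most and the 14 that fell most, the 10 largest falls outside the muscle list, up to 4 members of lowest p in each list and a panel of cartilage genes, and genes outside this rule are said to be so or are given as members of a list. The precision is limited by the number of arrays, 4 per group. Alternatives changed the scaling, the background correction, the filter, the weights, the arrays fitted, the probe per gene and the replicate block. The even GC content and the weighted fit to 8 arrays were chosen after seeing the data. Replicate numbers of the labels did not pair the arrays, with correlations of deviations of 0.26, -0.062, -0.022 and 0.16 for numbers 1 to 4.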

Additional observations from a re-analysis of the deposited data

Results flagged for a closer look

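Of 230 groups of 4 arrays tested, 2 for each of 115 named genes, 17 held an array far from the other 3. Here the gap to the nearest array divided by the range was above Dixon's critical value for 4 samples, and chance gives about 1 in 20 such groups. Replicate 4 of the 1-week group, the array of lowest signal, was the outlying array in 10 of the 17.

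Replicate 4 of 1 week was the low array in MMP13 (5.92, with the others from 7.15 to 7.34), TGFB1 (-0.53, others 0.55 to 0.74), GPX1 (5.04, others 5.63 to 5.73), PTGER4 (-0.76, others 0.53 to 0.73) and VCAM1 (-4.94, others -1.87 to -1.40). It was the high array in MMP1 (0.65, others -4.77 to -4.18), GJA10 (-2.10, others -2.67 to -2.65), NEB (-4.63, others -5.10 to -5.03), SLC12A3 (-2.14, others -2.65 to -2.63) and SLC29A2 (-0.75, others -1.33 to -1.23). Replicate 1 of 1 week was low in FGF7 (-5.26, others -4.05 to -3.84) and high in ATP2A1 (-1.85, others -4.20 to -3.80). In control, replicate 1 was high in BMP2 (2.44, others 1.87 to 1.95), replicate 2 in CCL2 (0.18, others -0.77 to -0.68) and replicate 3 in CXCL8 (-1.28, others -2.36 to -2.25). Control replicate 4 was high in CAMP (3.93, others 0.050 to 0.69) and SLC47A2 (-4.38, others -5.08 to -5.05).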

How the results depend on the processing

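Probe counts ranged most with the background correction and the estimate of the spread. Against 3658 probes and 152 named genes, normexp correction left 57 and 6, the fit to the 8 arrays alone 1372 and 60, the filter for all 8 arrays above background 2307 and 84, and the arrays without control replicates 1 and 2 left 1381 and 65. Leaving out 1 array at a time gave 2349 to 4212 probes, with the lowest without control replicate 1, and 104 to 168 named genes. Of the 152 named genes, 86 kept their call in each of these 8 fits and 55 in the fit to the 8 arrays alone. Quantile normalization gave 3356 probes, array weights 3848, weights on the 8 arrays alone 2800, no filter 3620 and the lowest p of each gene's probes 191 named genes. No called gene named in the text changed direction under any alternative run. Of the 79 called genes named in the text, 38 lost their call in the fit to the 8 arrays alone. In 33 of the 152 called genes 1 whole group was below background, so their size is known only as a bound. The cause of these shifts was not tested.

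With the replicate number as a replicate block, 3488 probes and 149 named genes were called. The labels share only the number between groups, and only numbers 1 and 4 matched best with themselves.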

Other observations

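Several genes outside the cartilage, muscle and immune groups were higher at 1 week, from few or no control arrays above background. TH, the enzyme that makes the precursor of dopamine and noradrenaline in nerve cells, was at -3.33, -3.20, -2.83 and -2.20 at 1 week and -6.34, -6.13, -5.72 and -5.73 in control. No control array was above background, and TH was at least 1.90-fold higher (limma adjusted p = 7.56e-07), with means of -4.47, -3.32 and -3.33 at 2, 4 and 8 weeks, where 0, 3 and 4 arrays were above background. OVGP1, an oviduct glycoprotein, was at -2.04, -0.73, -1.40 and -1.28 against -4.30, -3.92, -3.92 and -4.07 and rose 6.46-fold (adjusted p = 1.05e-06), with 1 control array above background. MLNR, the motilin receptor of gut, was at least 4.48-fold higher (0.0045), RSSD-1, a gene listed by that name alone, at least 1.79-fold (3.78e-08) and ADAM2, a sperm surface protein, at least 1.71-fold (0.025). ADAM2 lost its call when replicate 1 or 2 of 1 week or replicate 1, 2 or 3 of control was left out and with quantile normalization (adjusted p = 0.0647).

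HP, the haemoglobin-binding protein haptoglobin, fell 4.18-fold with all arrays above background (adjusted p = 0.0427) and lost its call without any 1-week array or control replicates 1 or 2. AOAH, an enzyme that inactivates endotoxin, fell by 1.28 on the log2 scale (0.0395) and lost its call without 6 of 8 arrays taken one at a time. F3, tissue factor, and VCAM1, an adhesion molecule, differed by -1.69 and -1.83 and were not called (0.0636 and 0.112). HBA and HBB2, the haemoglobin chains of red cells, differed by 0.35 and -0.063 and were not called. Of 31 kinase and phosphatase genes 4 were called higher and 2 lower, but 1 higher and 4 lower with each array centred on its median. PRKG2, a cGMP-dependent kinase of growing cartilage, rose by 1.87 ± 0.49 (adjusted p = 0.0163), with 3 of 4 control arrays above background. Its call was lost without 1-week replicate 4 or control replicate 1.

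Of the muscle genes, CASQ2, a calcium store protein, was at least 9.38-fold lower with no array above background at 1 week (adjusted p = 0.00769), MYL11, a fast myosin light chain, fell by 3.66 (0.00925) and ATP2A1, the calcium pump of fast fibres, by 4.39 (0.00593), with 2 of 4 arrays above background at 1 week. Rearranged immunoglobulin probes numbered 1281 on the array, and 150 were kept. Of these, 50 were called higher and 2 lower, with a median difference of 0.044. Of 82 T-cell receptor probes 11 were kept, 4 were called higher and none lower. Of all kept probes 9.86% were called higher and 4.51% lower.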
